A study of Mus musculus with 24 samples.

Results

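Inguinal subcutaneous white fat of mice fed a high-fat diet (HFD) was compared between 2 transgenic genotypes that differ in a transgenic γ1 subunit of the energy-sensing kinase AMPK (AMP-activated protein kinase). Of the 24 libraries of the series, the 12 in the HFD count table were used, as their labels assign them: 6 WT-Tg libraries (numbered 1 to 6), from mice with a wild-type AMPKγ1 transgene, and 6 D316A-Tg libraries (numbered 7 to 12), from mice whose transgene carries the gain-of-function D316A form. Both groups therefore carried a transgene, were C57BL/6J, were 24 weeks old and received the diet with 45% fat. The sources used here do not give the promoter of the transgene, the sex of the mice or the time on the diet. The labels do not say that the libraries came from separate animals, so the p-values measure the spread between these libraries. Every gene of the table was considered, 38483 in all, and 14649 had enough counts to be tested.

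AMPK is a heterotrimer of a catalytic α, a scaffolding β and a nucleotide-binding γ subunit, and it is switched on when ATP falls and AMP rises. Active AMPK phosphorylates enzymes of fatty acid, sterol and protein synthesis and restrains them, and it favours fuel oxidation and mitochondrial renewal. In white fat it is known for acting on lipolysis, fatty acid synthesis and thermogenic capacity.

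The libraries held 16373731 to 22748132 counts, and Adipoq, the adiponectin gene of adipocytes, stood between 1771 and 3908 CPM (read counts scaled by library size) in them, so the tissue label was met. The HFD libraries differed in genes known from 2 tissues other than fat. Skeletal muscle genes, scored as the mean log2 CPM of the muscle lists, stood at -0.20 to 1.77 in WT-Tg and at 1.63 to 5.82 in D316A-Tg libraries, with the highest score in D316A-Tg 7. The transcripts of the muscle genes took 0.145% to 0.167% of all counts in WT-Tg libraries and 0.174% to 3.72% in D316A-Tg libraries. Glycam1, a mucin of lymph node venules, was above 1 CPM in WT-Tg 3 (2.38) and in D316A-Tg 7, 8, 9 and 11 (3.74, 9.52, 1.85 and 10.5) and at most 0.304 CPM in the other 7 libraries. Cd79a, a B cell receptor gene, stood at 31.0 to 148 CPM in those 5 libraries and at 0.437 to 5.37 CPM in the others. The labels state that the node had been removed. Since 1 of 6 WT-Tg and 4 of 6 D316A-Tg libraries held these transcripts, the comparison was also fitted with a term for them, called the lymph-node term below. The muscle score overlapped between the groups only through the library labelled D316A-Tg 12 and WT-Tg 5, so the level of muscle transcripts and genotype cannot be told apart in the other libraries. Where the muscle transcripts came from was not tested. In these bulk samples fewer cells of a type and less RNA per cell cannot be told apart either.

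The library labelled D316A-Tg 12 stood apart from its group. On the 3844 genes outside the muscle genes that were called without it, and on a scale from 0 at the WT-Tg mean to 1 at the D316A-Tg mean, it stood at 0.049, and only 18.96% of these genes in it lay beyond the WT-Tg libraries in the direction of the D316A-Tg mean. D316A-Tg 10 stood at 0.637 and the other 4 D316A-Tg libraries at 1.01 to 1.14, each placed on the genes called without it. The WT-Tg libraries stood at -0.055 to 0.454, with WT-Tg 3 the highest. D316A-Tg 10 and the library labelled 12, with Glycam1 at or below 1 CPM, were thus the lowest of their group. WT-Tg 3, with Glycam1 above 1 CPM, was the highest of its own. The library labelled 12 also had the lowest muscle score of its group (1.63). What sets its position was not tested. Counts of called genes in the lists are therefore also given without the library labelled D316A-Tg 12. Leaving out the D316A-Tg library nearest the WT-Tg mean tends to widen the group difference, so more calls follow in part from that choice. In that fit 12.2% of all tested genes were called higher and 14.1% lower, and the list counts are to be read against these shares.

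**Figure D1:**
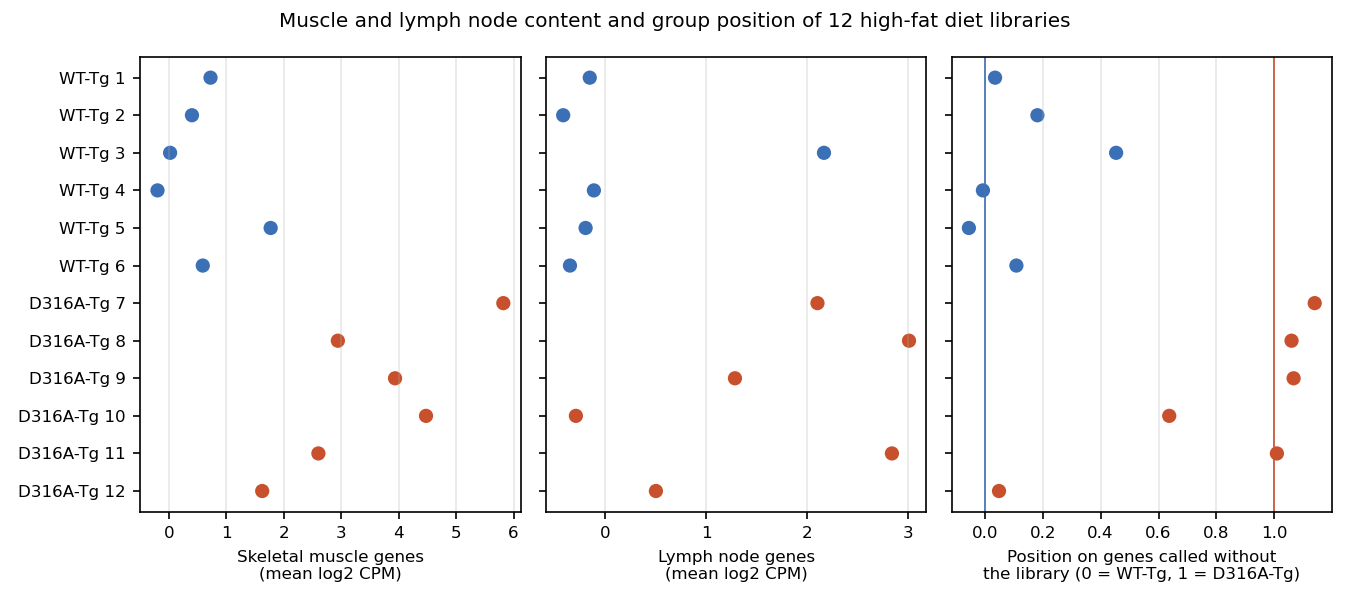
Each row is 1 of the 12 HFD libraries (blue: WT-Tg, red: D316A-Tg). The left panel gives the mean log2 CPM of skeletal muscle genes (-0.20 to 1.77 in WT-Tg, 1.63 to 5.82 in D316A-Tg), the middle panel that of lymph node genes, and the right panel the position of each library between the group means on genes called without it, where the library labelled D316A-Tg 12 stood at 0.049, beside the WT-Tg mean.

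A gene was called when its adjusted p in edgeR's quasi-likelihood test was below 0.05. With all 12 libraries 1241 of the 14649 genes passed (8.47%): 661 were higher (4.51%) and 580 lower (3.96%) in D316A-Tg, and 391 of them differed at least 2-fold. The median log2 fold change of all tested genes was 0.01. With the lymph-node term 79 genes passed (0.539%), of which 27 were higher (0.184%) and 52 lower (0.355%), and 77 were among the 1241, all with the same direction. That smaller set rested on 2 libraries: without WT-Tg 3 or without D316A-Tg 10 no gene was called by edgeR with the term, while 1556 and 1420 genes had an unadjusted p below 0.05. The 6 values of one group lay wholly beyond the 6 of the other for 500 genes (3.41%), 223 higher (1.52%) and 277 lower (1.89%). Without the library labelled D316A-Tg 12, 3919 of 14902 genes passed (26.3%): 1821 were higher (12.2%) and 2098 lower (14.1%), and all 1241 were among them. When the muscle score was a covariate no gene was called by edgeR (922 at an unadjusted p below 0.05) and 27 were called by DESeq2.

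**Figure D2:**
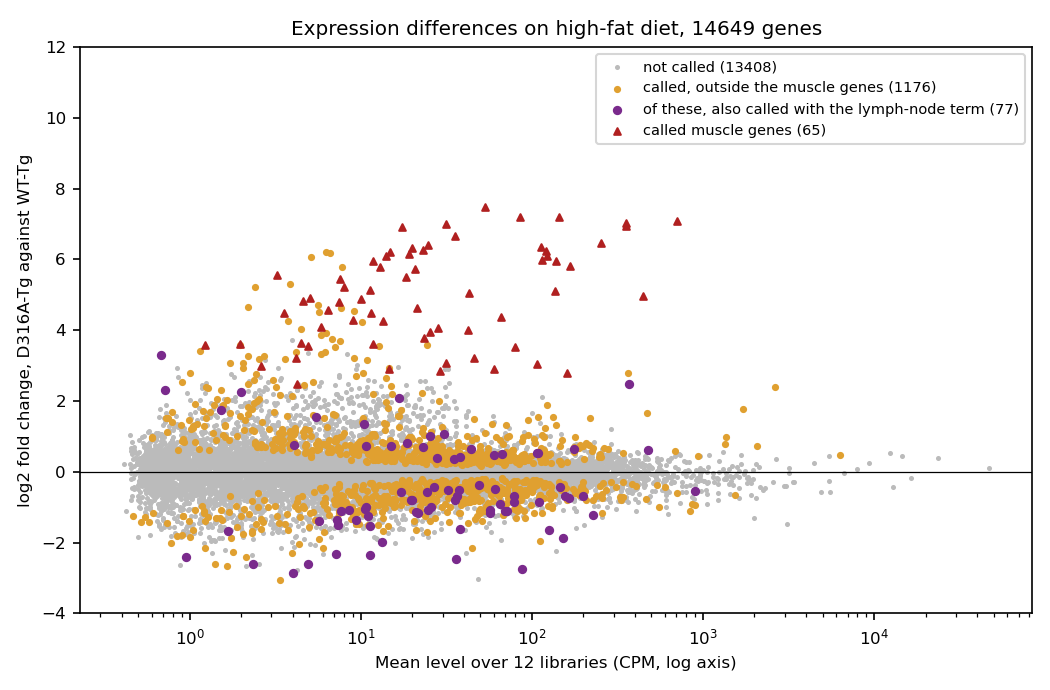
Each point is 1 of the 14649 tested genes, with its mean level over the 12 libraries in CPM (log axis) against its log2 fold change, D316A-Tg against WT-Tg. The 65 called muscle genes (red triangles) lie between 2.48 and 7.47 on the log2 scale, and the 77 genes called both with and without the lymph-node term (purple) lie on both sides of 0.

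Of the AMPK subunits themselves 1 was called. Prkaa1, which encodes the α1 catalytic subunit, rose, from 55.8 to 63.4 CPM (median 59.1) in WT-Tg to 58.9 to 79.0 CPM (median 73.1) in D316A-Tg (log2 fold change 0.28 ± 0.07 SE, adjusted p = 0.0389). It was the only subunit of 7 to be called, and it lost the call in 10 of the 12 fits that left out 1 library (adjusted p up to 0.0884, without WT-Tg 5). Prkag1, the endogenous γ1 gene, measured 292 to 337 CPM (median 310) in WT-Tg and 246 to 688 CPM (median 305) in D316A-Tg (log2 fold change 0.25 ± 0.22 SE, adjusted p = 0.445). Its highest value was in D316A-Tg 7, and without that library its log2 fold change was -0.03. Whether reads of the transgene were counted in Prkag1 is not given in the sources used here, and 43.7% of its exon length overlaps another annotated gene, so its level checks no label. Prkaa2 (α2) and Prkab2 (β2), isoforms known for skeletal muscle, were also highest in D316A-Tg 7, at 69.4 and 106 CPM against WT-Tg maxima of 23.9 and 31.2 CPM, and neither passed the test (log2 fold change 0.65 ± 0.28 SE, adjusted p = 0.139 and log2 fold change 0.67 ± 0.34 SE, adjusted p = 0.191). Prkag3 (γ3, also known for skeletal muscle), Prkab1 (β1) and Prkag2 (γ2) had log2 fold changes of 0.35, -0.01 and 0.01 with adjusted p of 0.583, 0.935 and 0.948. Of 8 upstream kinases and folliculin partners none was called by edgeR with all 12 libraries, and 4 rose without the library labelled D316A-Tg 12. None was called with the lymph-node term, and neither was any subunit. Flcn, whose product folliculin restrains AMPK signalling, had a log2 fold change of 0.47 (adjusted p = 0.0570, 0.0139 without the library labelled D316A-Tg 12), and its partner Fnip1 0.41 (adjusted p = 0.0537 and 0.0192).

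Skeletal muscle genes were higher in D316A-Tg, with the largest log2 fold changes among the lists. All 11 tested fast fibre genes rose, as did 19 of 21 tested sarcomere genes, 11 of 16 genes of the triad and calcium cycling and 10 of 16 genes of muscle energy metabolism, and none fell. The median log2 fold changes of these lists were 6.09, 4.37, 3.42 and 3.29, against 0.01 over all genes. The members that rose without the library labelled D316A-Tg 12 were 11 of 11, 21 of 22, 13 of 17 and 13 of 16 tested, and 1 triad gene fell. None of them was called with the lymph-node term, where the medians were 5.86, 4.15, 3.16 and 2.96. Slow fibre genes were mostly too low to test (1 of 9 tested, which rose), and of the myogenic lineage genes 3 of 14 were tested and none was called. Pax7, the gene of muscle stem cells, was at most 0.404 CPM in every library.

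Mybpc2, the fast fibre myosin-binding protein, measured 0.188 to 2.77 CPM (median 0.796) in WT-Tg libraries. In D316A-Tg libraries it measured 718 CPM in library 7, 53.1 in 8, 46.4 in 9, 183 in 10, 14.3 in 11 and 4.41 in the library labelled 12, so the groups did not overlap while the D316A-Tg values spread widely (log2 fold change 7.21 ± 1.30 SE, adjusted p = 0.0179). Actn3, the α-actinin of fast fibres, measured 0.376 to 4.61 CPM (median 1.73) in WT-Tg and 2.54 to 1187 CPM (median 83.8) in D316A-Tg, with an overlap of the groups (log2 fold change 7.21 ± 1.38 SE, adjusted p = 0.0194). Atp2a1, the fast muscle calcium pump of the sarcoplasmic reticulum, measured 0.517 to 18.7 CPM (median 2.95) in WT-Tg and 15.97 to 2927 CPM (median 201) in D316A-Tg (log2 fold change 7.04 ± 1.43 SE, adjusted p = 0.0222), and its groups overlapped. It lost its call in 1 fit, without WT-Tg 6 (adjusted p = 0.0523). Other muscle genes with the lowest adjusted p were the kinase Mylk4, the thin-filament anchor Nrap, the glycolytic Pgam2 and the AMP deaminase Ampd1, with log2 fold changes of 7.47, 6.14, 7.01 and 6.93 and adjusted p of 0.0184 to 0.0194. Tnni2, Mylpf, Tcap, Myom2, Mb, Trdn, Cacna1s, Sypl2, Ckmt2 and Eno3 rose by 4.25 to 6.32 on the log2 scale. For Mybpc2, Ttn and Acta1, D316A-Tg library 7 was the highest, library 10 came next and the library labelled 12 was the lowest of the group.

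The muscle genes were separated from the rest with the chow libraries, which the HFD comparison does not use: 48 genes followed the muscle score there with a Pearson r of at least 0.9, and with the members of the muscle lists this made 110 genes, 84 of them tested. Of these 84, 65 rose and none fell. Outside them 1176 genes were called, 596 higher and 580 lower. The separation was narrow. Mypn, Klhl31, Rpl3l, Scn4a, Tmod4, Asb2, Asb5 and Capn3, genes known from striated muscle and picked here after their values were seen, rose by 4.02 to 6.22 on the log2 scale and stayed outside it, and 36 of the 1176 genes were not tested on chow. With a Pearson r of at least 0.6, a setting added after seeing the data, the muscle genes tested numbered 426 and 1119 genes were called outside them.

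The start regions of the sarcomere genes can be read for a loose form of the letters that the muscle factor MEF2 is known to bind. The letters searched were CTA and TAG with any 4 letters between them, which read alike on both strands. MEF2 is known to favour A or T at these 4 places. The match of Ldb3 holds a C there and that of Smpx a G. In the 250 bases before the gene start in RefSeq's promoter windows (GRCm38.p6), 5 of the 14 sarcomere genes with an entry held these letters, all 5 among the 12 of them that rose, against 3.70% of 27025 genes, and none of 8 fast fibre genes did. The E-box letters CAGCTG, which muscle bHLH factors are known to bind, were in 8 of the 14 (6 of the 12 that rose) and 3 of the 8, against 14.7% of all genes. Part of the window is given for 3 of the 5, to show the match in genes that rose together, with the letters searched in capitals. These are matches of letters and not measured sites.
Ldb3, chr14:34588608-34588712, minus strand: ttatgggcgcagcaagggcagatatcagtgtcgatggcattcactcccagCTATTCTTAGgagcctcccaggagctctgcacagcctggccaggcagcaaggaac
Xirp2, chr2:67445878-67445987, plus strand: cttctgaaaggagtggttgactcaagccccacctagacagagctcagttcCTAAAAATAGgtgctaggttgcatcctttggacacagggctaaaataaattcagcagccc
Klhl41, chr2:69670007-69670116, plus strand: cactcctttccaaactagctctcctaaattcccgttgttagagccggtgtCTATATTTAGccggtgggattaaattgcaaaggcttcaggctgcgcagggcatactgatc

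Ldb3, a Z-disc protein, Xirp2, an actin-binding protein of striated muscle, and Klhl41, a sarcomere assembly factor, had log2 fold changes of 3.07, 3.79 and 4.88 (adjusted p = 0.0341, 0.0388 and 0.0235).

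The next genes were among those outside the muscle genes that rose most and were called with and without the lymph-node term. Celsr2, an atypical cadherin (chr3:108390851-108415552), measured 5.21 to 8.19 CPM (median 6.39) in WT-Tg and 16.4 to 40.9 CPM (median 23.3) in D316A-Tg, and every D316A-Tg library, the one labelled 12 included at 16.4 CPM, was above every WT-Tg library (log2 fold change 2.07 ± 0.23 SE, adjusted p = 0.00533; with the lymph-node term 2.00, adjusted p = 0.0155). Cyp2e1, a cytochrome P450 that oxidises ethanol, acetone and fatty acids (chr7:140763739-140774987), measured 29.5 to 152 CPM (median 126) in WT-Tg and 263 to 802 CPM (median 655) in D316A-Tg (log2 fold change 2.47 ± 0.37 SE, adjusted p = 0.00985). In the library labelled D316A-Tg 12 it stood at 704 CPM, within the range of the other D316A-Tg libraries. Fgf11, an intracellular FGF family member (chr11:69796068-69801857), measured 5.46 to 6.62 CPM (median 5.89) in WT-Tg and 11.1 to 19.2 CPM (median 14.4) in D316A-Tg, again without overlap (log2 fold change 1.34 ± 0.14 SE, adjusted p = 0.00427). Esr1, the oestrogen receptor α gene (chr10:4611593-5005614), measured 14.99 to 25.4 CPM (median 19.99) in WT-Tg and 31.2 to 53.5 CPM (median 40.7) in D316A-Tg (log2 fold change 1.08 ± 0.16 SE, adjusted p = 0.00981). Pygo1, a co-factor of β-catenin, measured 2.24 to 3.25 CPM (median 2.75) in WT-Tg and 5.02 to 12.02 CPM (median 7.78) in D316A-Tg (log2 fold change 1.55 ± 0.20 SE, adjusted p = 0.00716). N4bp2l1, Tbc1d16, Eml5 and Tmem159 rose by 1.01, 0.80, 0.72 and 0.70 on the log2 scale. All 9 had groups that did not overlap, and all 9 kept their call in each of the 12 fits that left out 1 library. Both traits follow in part from the choice of the genes, which used the calls and fold changes of the same libraries. With the muscle score as a covariate none was called, and their estimates kept their sign, with 2.12 for Celsr2 (adjusted p = 0.553), 3.26 for Cyp2e1 (0.553) and 1.23 for Fgf11 (0.553).

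The genes that fell most were taken by the same rule. Ncan, the chondroitin sulfate proteoglycan neurocan (chr8:70093085-70120873), measured 91.7 to 262 CPM (median 131) in WT-Tg and 11.3 to 52.9 CPM (median 17.4) in D316A-Tg (log2 fold change -2.74 ± 0.40 SE, adjusted p = 0.00943; -2.44 with the lymph-node term, adjusted p = 0.0184). The highest D316A-Tg value, 52.9 CPM, was in the library labelled 12, and without it the log2 fold change was -3.20 (adjusted p = 0.000341). Slit2, a secreted guidance ligand of ROBO receptors (chr5:47983138-48307733), measured 4.85 to 10.3 CPM (median 6.86) in WT-Tg and 0.179 to 2.94 CPM (median 0.543) in D316A-Tg (log2 fold change -2.85 ± 0.57 SE, adjusted p = 0.0218), with the library labelled 12 again the highest of its group. Il20rb, a subunit of the receptors for the IL-20 cytokine family (chr9:100457719-100486788), measured 7.56 to 16.3 CPM (median 12.3) in WT-Tg and 1.46 to 4.72 CPM (median 1.91) in D316A-Tg (log2 fold change -2.33 ± 0.32 SE, adjusted p = 0.00721). Lum, the collagen-binding proteoglycan lumican (chr10:97565128-97572703), measured 126 to 344 CPM (median 219) in WT-Tg and 24.4 to 117 CPM (median 50.7) in D316A-Tg (log2 fold change -1.88 ± 0.41 SE, adjusted p = 0.0246). It lost its call in 4 of the 12 fits that left out 1 library, with an adjusted p of up to 0.0541 (without D316A-Tg 9). Tnfrsf12a, the receptor of TWEAK, measured 45.6 to 88.7 CPM (median 51.9) in WT-Tg and 10.1 to 26.6 CPM (median 17.99) in D316A-Tg (log2 fold change -1.61 ± 0.25 SE, adjusted p = 0.0109). Gipc2, Fbln7, Kcnc2, Lctl and Cxadr had log2 fold changes of -2.61, -2.36, -1.99, -1.63 and -1.53. Of the 10, the groups overlapped for Lctl alone, through 152 CPM in the library labelled D316A-Tg 12, and Lctl lost its call in 9 of the 12 fits and Cxadr in 1, without WT-Tg 4 (adjusted p up to 0.0730 and 0.0502). The lack of overlap in the others follows in part from how the genes were chosen, as above.

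**Figure D3:**
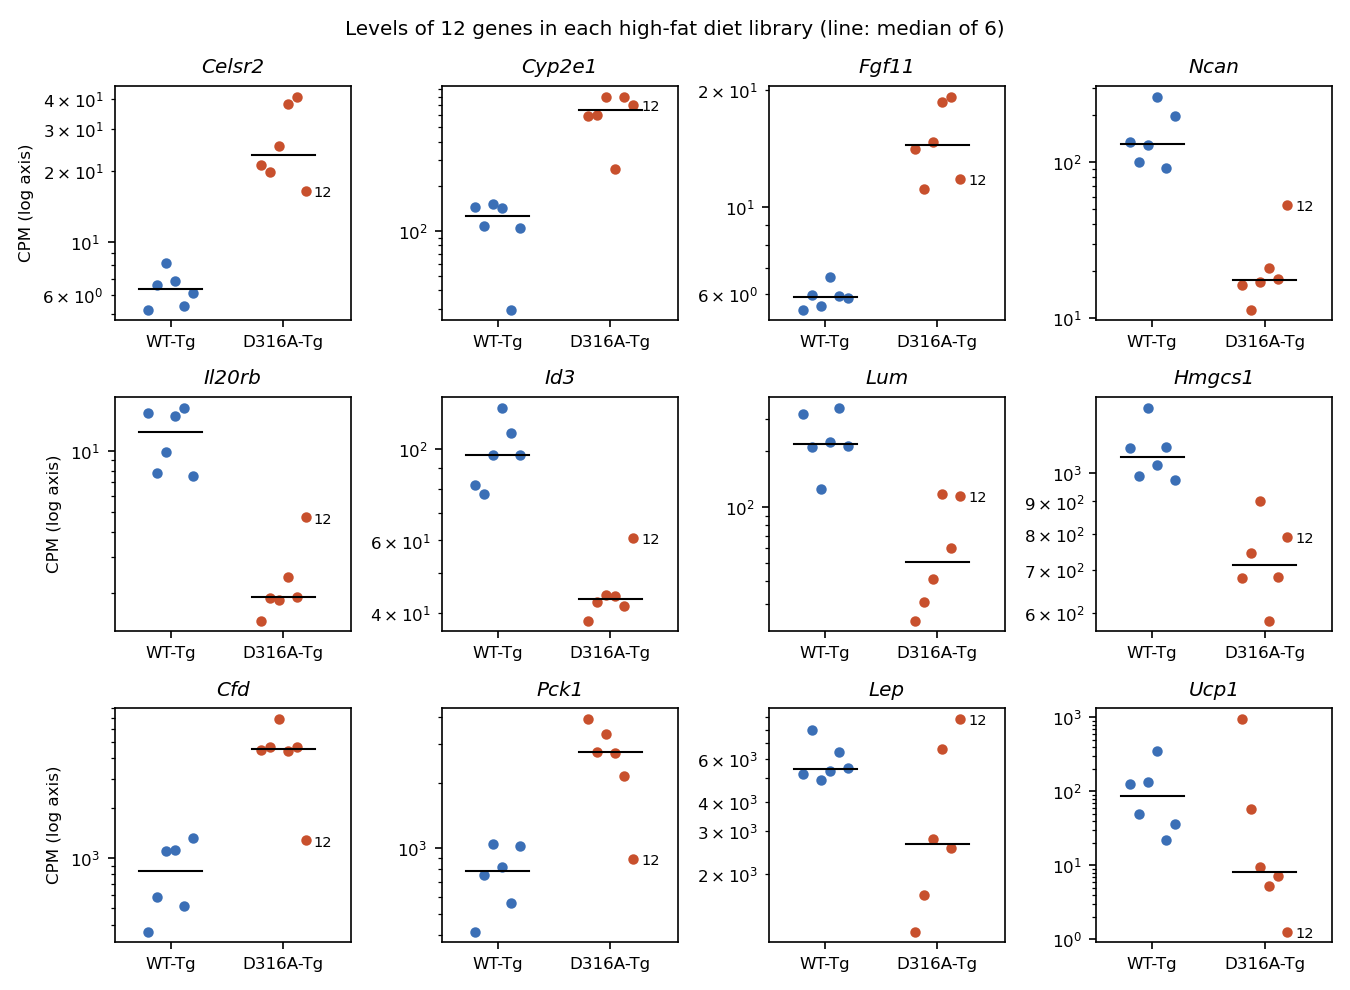
Each panel gives 1 gene, with its CPM (log axis) in the 6 WT-Tg (blue) and 6 D316A-Tg libraries (red), a line at the median and the library labelled D316A-Tg 12 marked. Celsr2, Cyp2e1 and Fgf11 do not overlap between the groups, Ncan, Il20rb, Id3, Lum and Hmgcs1 are lower in all D316A-Tg libraries, and the library labelled 12 stands among the WT-Tg libraries for Cfd and Pck1, while Ucp1 spreads from 1.27 to 961 CPM within D316A-Tg.

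Genes of adipocyte lipid handling were called in both directions with all 12 libraries, and no member of the triglyceride, lipolysis and lipogenesis lists was called with the lymph-node term. Cfd, which encodes the adipokine adipsin (complement factor D; chr10:79890853-79892655), rose: it measured 362 to 1329 CPM (median 843) in WT-Tg and 1283 to 6935 CPM (median 4584) in D316A-Tg (log2 fold change 2.4 ± 0.41 SE, adjusted p = 0.0161). The 5 D316A-Tg libraries other than the one labelled 12 stood at 4403 CPM or more, and that one at 1283 CPM lay below the WT-Tg maximum of 1329. With the lymph-node term Cfd was not called (1.99, adjusted p = 0.0624). Pck1, the phosphoenolpyruvate carboxykinase of glyceroneogenesis (chr2:173153048-173159273), measured 414 to 1046 CPM (median 787) in WT-Tg and 894 to 3934 CPM (median 2755) in D316A-Tg (log2 fold change 1.78 ± 0.33 SE, adjusted p = 0.0194), and here too the library labelled 12 stood among the WT-Tg libraries. Of 14 tested genes of triglyceride synthesis and glyceroneogenesis, 2 rose, Pck1 and the mitochondrial glycerol-phosphate dehydrogenase Gpd2 (1.32), whose highest value was 249 CPM in D316A-Tg 7, and none fell, while 2 rose and 3 fell without the library labelled D316A-Tg 12. Of 13 lipolysis genes 2 rose and 1 fell, against 4 and 2 without that library. Of all tested genes 4.51% rose and 3.96% fell with all 12 libraries, and 12.2% and 14.1% without that library. Adrb3, the adrenergic receptor gene typical of adipocytes, rose by 1.53 on the log2 scale, and Abhd5, the co-activator of the lipase ATGL, had a log2 fold change of -0.48 and was the one that fell. Adrb3 measured 40.1 to 124 CPM (median 60.8) in WT-Tg and 96.5 to 332 CPM (median 192) in D316A-Tg. Of 19 genes of de novo lipogenesis 3 rose and 2 fell (3 and 4 without that library), with a list median of -0.30. Those that rose were the lipogenic regulator Thrsp (1.67), the mitochondrial acetyl-CoA carboxylase Acacb (1.33) and the desaturase Fads1 (0.95). Those that fell were the citrate carrier Slc25a1 (-0.99) and the desaturase Scd2 (-1.11). With the muscle score as a covariate Acacb had 0.19, Thrsp 1.87, Fads1 0.75 and Slc25a1 -0.59, and none of them was called. Slc25a1 measured 569.6 to 946 CPM (median 694) in WT-Tg and 250.4 to 685 CPM (median 318) in D316A-Tg, with 685 CPM in the library labelled 12 and at most 356 in the other 5. In fits that left out 1 library, Adrb3 lost its call in 6 of 12, Thrsp in 3, Abhd5 and Gpd2 in 8, Acacb and Fads1 in 9 and Slc25a1 in 10, with adjusted p of up to 0.0901.

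Among secreted adipose factors (18 tested, 1 higher and 2 lower with all libraries, 2 and 5 without the library labelled D316A-Tg 12) Lcn2, the lipocalin of inflamed fat, fell (1.98 to 17.4 CPM (median 9.83) in WT-Tg and 1.01 to 3.904 CPM (median 2.05) in D316A-Tg; log2 fold change -2.16 ± 0.51 SE, adjusted p = 0.0282), as did Fgf21, an endocrine FGF (-0.97). Lep, the leptin gene, was not called. It measured 4934 to 7937 CPM (median 5444) in WT-Tg and 1141 to 8883 CPM (median 2667) in D316A-Tg (log2 fold change -0.58 ± 0.44 SE, adjusted p = 0.373). The library labelled D316A-Tg 12 was above all WT-Tg libraries at 8883 CPM, D316A-Tg 10 was inside their range at 6625 CPM, and the other 4 were below it at 1141 to 2780 CPM. The mature adipocyte list (18 tested, median 0.06) held 1 gene that rose, Cfd, and none that fell, against 2 and 1 without the library labelled 12. Of 13 insulin signalling genes 2 rose: Foxo1, a transcription factor that insulin restrains (78.6 to 158 CPM (median 99.4) in WT-Tg and 126 to 261 CPM (median 194) in D316A-Tg; log2 fold change 0.90 ± 0.20 SE, adjusted p = 0.0243), and the receptor substrate Irs2 (0.47). Of 21 genes of glucose uptake and glycolysis 2 rose, the insulin-responsive transporter Slc2a4 (100.2 to 166 CPM (median 134) in WT-Tg and 133 to 294 CPM (median 205) in D316A-Tg; log2 fold change 0.69 ± 0.19 SE, adjusted p = 0.0438) and the lactate carrier Slc16a3 (3.32), which was 41.4 CPM in its highest D316A-Tg library against a WT-Tg maximum of 1.89. Slc16a3 is known from fast muscle, and with the muscle score as a covariate its estimate was -1.31. In that fit Slc2a4 had 0.24, Foxo1 0.85 and Irs2 0.37, and none of them was called. Of the insulin signalling genes 3 rose and 1 fell without the library labelled 12, and of those of glucose uptake and glycolysis 3 rose and 3 fell. The shares over all genes in that fit were 12.2% higher and 14.1% lower. No member of these 4 lists was called with the lymph-node term. Leaving out 1 library ended the calls of Lcn2 in 7 of 12 fits, Fgf21 in 8, Foxo1 in 4, Irs2 in 10, Slc2a4 in 11 and Slc16a3 in 7 (adjusted p up to 0.0963).

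Few genes of oxidative metabolism were called on HFD with all 12 libraries, and none of those in the 5 lists that follow was called with the lymph-node term. Of 74 nuclear-encoded genes of oxidative phosphorylation none was called (edgeR; 1 was called, lower, without the library labelled D316A-Tg 12), although 64 of 74 log2 fold changes were above 0, and their median was 0.15. Ndufb3 and Ndufa6, subunits of complex I and the members with the lowest adjusted p, had log2 fold changes of -0.30 and 0.33 (adjusted p = 0.103 and 0.147). Of 13 transcripts of the mitochondrial genome mt-Nd5 and mt-Nd3 rose, by 0.47 and 0.75 on the log2 scale, and none fell, with a list median of 0.46. Of 18 genes of the citric acid cycle none was called. Of 17 genes of branched-chain amino acid catabolism Aldh6a1 and Acadsb rose (0.58 and 0.41), and of 25 genes of fatty acid oxidation the peroxisomal Ehhadh rose (0.51) and Cpt1a, the gate of mitochondrial fatty acid import, fell (176 to 224 CPM (median 205) in WT-Tg and 63.3 to 199 CPM (median 108) in D316A-Tg; log2 fold change -0.78 ± 0.22 SE, adjusted p = 0.0484). Leaving out the library labelled D316A-Tg 12, 7 of the 17 genes of branched-chain amino acid catabolism rose, 2 genes of fatty acid oxidation rose and 3 fell, 2 mitochondrial transcripts rose and 1 gene of the citric acid cycle rose. Over all genes that fit called 12.2% higher and 14.1% lower. Cpt1a stood at 199 CPM in the library labelled 12, inside the WT-Tg range, and its call was lost in 10 of 12 fits that left out 1 library. The calls of mt-Nd5 and mt-Nd3 were lost in 10 and 11 of them, those of Aldh6a1 and Acadsb in 9 and that of Ehhadh in 6 (adjusted p up to 0.0990 for mt-Nd3 and 0.0991 for Cpt1a).

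Of 19 tested brown and beige adipocyte genes none rose and Fgf21 alone fell. The list median was 0.72, and it was -0.16 with the lymph-node term and -0.68 with the muscle score as a covariate. When the library labelled D316A-Tg 12 was left out, 5 rose and 2 fell (12.2% and 14.1% of all genes did), and with the term none was called. Ucp1, the uncoupling protein of brown and beige fat (chr8:83290352-83298452), measured 21.8 to 351 CPM in WT-Tg libraries (median 87.7). In D316A-Tg libraries it measured 961 CPM in library 7, 58.1 in 8, 9.37 in 9, 5.22 in 10, 7.13 in 11 and 1.27 in the library labelled 12. The median was thus lower in D316A-Tg while the fitted log2 fold change was 0.54 ± 1.35 SE (adjusted p = 0.802), and without D316A-Tg 7 it was -2.88 (adjusted p = 0.110). With the lymph-node term the estimate was -3.70 (adjusted p = 0.517). Dio2 and Cidea, the deiodinase and the lipid droplet protein of thermogenic fat, were likewise highest in D316A-Tg 7, at 74.03 and 285 CPM. Of 5 creatine cycling genes Gatm, the first enzyme of creatine synthesis, fell (9.22 to 17.3 CPM (median 12.6) in WT-Tg and 6.51 to 10.9 CPM (median 8.96) in D316A-Tg; log2 fold change -0.55 ± 0.16 SE, adjusted p = 0.0495). Of the 5, 3 fell without the library labelled D316A-Tg 12, and none was called with the lymph-node term. Gatm lost its call in 10 of 12 fits that left out 1 library, with an adjusted p of up to 0.113.

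Of 24 tested genes of cholesterol synthesis and uptake 10 fell and none rose, with a median of -0.51, and 22 of 24 log2 fold changes were below 0. Without the library labelled D316A-Tg 12, 16 fell, and with the lymph-node term 1 did. Hmgcs1, the HMG-CoA synthase at the head of the pathway (chr13:119690379-119708260), measured 974 to 1268 CPM (median 1059) in WT-Tg and 582 to 901 CPM (median 715) in D316A-Tg, and all 6 D316A-Tg libraries were below all WT-Tg libraries (log2 fold change -0.56 ± 0.12 SE, adjusted p = 0.0226). It was the member called with the lymph-node term (-0.65, adjusted p = 0.0409). Fdps, the farnesyl diphosphate synthase, measured 58.4 to 85.7 CPM (median 71.4) in WT-Tg and 29.3 to 63.6 CPM (median 31.4) in D316A-Tg (log2 fold change -0.97 ± 0.19 SE, adjusted p = 0.0198), with 63.6 CPM in the library labelled 12 and at most 33.6 in the other 5. Dhcr7, the last enzyme of the pathway, and Stard4, a sterol carrier, fell as well, with log2 fold changes of -0.81 and -0.85. The other members that fell were Nsdhl (-1.06), Lss (-0.87), Mvd (-0.83), Cyp51 (-0.83), Sqle (-0.62) and Pmvk (-0.51). Srebf2, the master regulator of the pathway, had a log2 fold change of 0.28 (adjusted p = 0.338). Dhcr7 lost its call in 9 of the 12 fits that left out 1 library and Stard4 in 3 (adjusted p up to 0.0638), while Hmgcs1 and Fdps kept theirs in all 12.

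The sterol response element letters TCACNCCAC, known as a binding sequence of SREBP factors, were searched on both strands of the 250 bases before the RefSeq gene start. They were found for Hmgcs1 alone among 16 sterol genes with an entry, against 1.22% of 27025 genes. The CCAAT letters, known for NF-Y, which binds beside SREBP, were in 15 of the 16 genes and in 37.5% of all genes. The window of Hmgcs1 is given because it is the list member called in both fits, with the sterol response letters in capitals. A shorter CCAAT match on the other strand, printed there as attgg, lies before them.
Hmgcs1, chr13:119690164-119690272, plus strand: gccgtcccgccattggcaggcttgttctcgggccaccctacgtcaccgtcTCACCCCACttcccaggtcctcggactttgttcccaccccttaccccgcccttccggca

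Of the 3 stromal and matrix lists 2 held called genes. Of 18 adipocyte progenitor and fibroblast genes 4 fell and none rose (median -0.46): Lum, Pdgfrb, Ly6a and Pdgfra. Pdgfrb, a receptor of mural cells and preadipocytes, measured 56.9 to 98.2 CPM (median 70.9) in WT-Tg and 27.3 to 50.3 CPM (median 34.4) in D316A-Tg (log2 fold change -1.08 ± 0.18 SE, adjusted p = 0.0159), and it was also called with the lymph-node term (-0.81, adjusted p = 0.0357). Ly6a, the Sca-1 antigen of progenitors, measured 99.6 to 136 CPM (median 105) in WT-Tg and 44.8 to 90.6 CPM (median 73.7) in D316A-Tg (log2 fold change -0.66 ± 0.17 SE, adjusted p = 0.0364). Of 18 matrix proteases and inhibitors 6 fell and none rose (median -0.92). Among them were the stromelysin Mmp3 (17.9 to 161 CPM (median 62.1) in WT-Tg and 8.84 to 38.6 CPM (median 10.8) in D316A-Tg; log2 fold change -2.17 ± 0.53 SE, adjusted p = 0.0340), the membrane protease Mmp14 (-1.26), the gelatinase Mmp2 (-1.16) and Adamts1 (-1.09). No collagen or matrix gene of 31 was called by edgeR with all 12 libraries, although 28 log2 fold changes were below 0 and the median was -0.78, and 19 fell without the library labelled D316A-Tg 12. Col3a1, a fibrillar collagen, measured 1701 to 4355 CPM (median 2303) in WT-Tg and 503 to 2129.8 CPM (median 954) in D316A-Tg (log2 fold change -1.32 ± 0.38 SE, adjusted p = 0.0516; without the library labelled 12 -1.47, adjusted p = 0.0233). Col1a2, of type I collagen, had a log2 fold change of -1.20 (adjusted p = 0.0502). The counts without the library labelled 12 were 6 progenitor genes and 11 protease and inhibitor genes lower and none higher. Under the lymph-node term Lum and Pdgfrb were the only members of the 3 lists called, and no protease or collagen was. The 3 medians were then -0.23, -0.74 and -0.42. Of the members named, Pdgfrb kept its call in all 12 fits that left out 1 library, while Ly6a lost it in 7, Pdgfra in 10, Mmp14 and Mmp3 in 8, Mmp2 in 9 and Adamts1 in 6 (adjusted p up to 0.105).

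Macrophage genes had the lowest median of the cell type lists, -1.02 over 23 tested genes, of which 6 fell and none rose. Of the 23 log2 fold changes 17 were below 0 and 6 above. Mrc1, the mannose receptor, measured 64.8 to 233 CPM (median 103) in WT-Tg and 28.4 to 84.5 CPM (median 44.1) in D316A-Tg (log2 fold change -1.32 ± 0.33 SE, adjusted p = 0.0363). The complement genes C1qa, C1qb and C1qc fell together (-1.10, -1.17 and -1.12), as did the scavenger receptor Msr1 (-1.51) and Cd14, the co-receptor for lipopolysaccharide (-1.14), whose groups alone of these did not overlap. Csf1r, the receptor for the growth factor of macrophages, had a log2 fold change of -0.91 (adjusted p = 0.0742). Without the library labelled D316A-Tg 12, 14 of the 23 genes fell. Of 15 genes of lipid-associated macrophages Plin2, a droplet coat protein that adipocytes express too, was the only one called (872 to 1441 CPM (median 1181) in WT-Tg and 425 to 1027 CPM (median 512) in D316A-Tg; log2 fold change -0.94 ± 0.22 SE, adjusted p = 0.0289), and 14 of 15 log2 fold changes were below 0. Of these 15, 10 fell without the library labelled 12, and none was called with the lymph-node term. Of 17 cytokine and chemokine genes Cxcl1, a neutrophil chemokine, was the only one called and fell (1.66 to 3.06 CPM (median 2.69) in WT-Tg and 0.532 to 1.06 CPM (median 0.778) in D316A-Tg; log2 fold change -1.67 ± 0.23 SE, adjusted p = 0.00724), also with the lymph-node term (adjusted p = 0.0253). With that term the macrophage median was -0.48 and no member was called. The complement genes lost their calls in 9 (C1qa) and 10 (C1qc) of 12 fits that left out 1 library, Mrc1 in 9, Cd14 in 4 and Plin2 in 7 (adjusted p up to 0.0917). Cxcl1 kept its call in all 12.

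T and B lymphocyte genes had medians of 1.92 (18 tested) and 1.84 (14 tested), which were 0.50 and 0.63 with the lymph-node term, and none was called in either fit. Of the T cell genes 1 rose, and of the B cell genes 1 rose and 1 fell, without the library labelled D316A-Tg 12, where 12.2% of all genes rose and 14.1% fell. The B lymphocyte score, the mean log2 CPM of the list, was 4.82 to 6.68 in the 5 libraries with Glycam1 above 1 CPM, 6.02 of them in WT-Tg 3. It was 0.52 to 2.17 in the other 5 WT-Tg libraries, 1.64 in D316A-Tg 10 and 2.88 in the library labelled D316A-Tg 12.

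Of 17 endothelial genes 5 fell and none rose (median -0.51), and 14 fell and 1 rose without the library labelled D316A-Tg 12. Emcn, the endothelial sialoprotein endomucin, measured 20.3 to 30.6 CPM (median 24.9) in WT-Tg and 11.3 to 17.2 CPM (median 13.8) in D316A-Tg without overlap (log2 fold change -0.81 ± 0.13 SE, adjusted p = 0.0137; -0.64 with the lymph-node term, adjusted p = 0.0400). Egfl7, Eng, Vwf and the VEGF receptor gene Kdr had log2 fold changes of -0.87, -0.60, -0.92 and -0.51. Vwf stood at 37.5 CPM in the library labelled 12, inside the WT-Tg range of 32.3 to 52.7, against a D316A-Tg median of 16.9. Of 14 smooth muscle and pericyte genes 3 fell and 1 rose, against 6 and 1 without that library. Emcn and Cspg4 were the only members of these 2 lists called with the lymph-node term. Cspg4, the NG2 proteoglycan of pericytes, measured 119.5 to 172 CPM (median 138) in WT-Tg and 62.1 to 106 CPM (median 76.7) in D316A-Tg (log2 fold change -0.84 ± 0.13 SE, adjusted p = 0.00981), Notch3 and the potassium channel Kcnj8 had log2 fold changes of -0.94 and -0.94, and the gene that rose, Des (2.91), encodes desmin and is among the skeletal muscle genes too. Emcn and Cspg4 kept their calls in all 12 fits that left out 1 library, while Eng lost its call in 3, Egfl7 in 4, Vwf in 9, Kcnj8 in 9, Notch3 in 1 (without D316A-Tg 9) and Des in 2 (adjusted p up to 0.0865).

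Of 17 circadian clock genes 4 rose and none fell (median 0.36), and 9 rose and 1 fell without the library labelled D316A-Tg 12. None was called with the lymph-node term (adjusted p = 0.110 for Tef, 0.133 for Per1 and 0.211 for Hlf). The PAR bZIP output factors Hlf and Tef had log2 fold changes of 1.26 and 0.75, and Per1, a repressor of the clock loop, had 0.61. The core activators Arntl and Clock had log2 fold changes of -0.50 and -0.24 (adjusted p = 0.211 and 0.218). The sources used here do not give the hour at which tissue was taken, and its part in this result was not tested. Hlf lost its call in 9 and Per1 in 6 of 12 fits that left out 1 library (adjusted p up to 0.0769). Of 20 genes of Id, BMP and Notch signalling 2 fell and none rose, while 5 fell without the library labelled D316A-Tg 12 and 1 fell with the lymph-node term. Id3, an inhibitor of bHLH factors, measured 77.9 to 126 CPM (median 96.5) in WT-Tg and 38.4 to 60.8 CPM (median 43.3) in D316A-Tg without overlap (log2 fold change -1.11 ± 0.14 SE, adjusted p = 0.00716; -1.02 with the lymph-node term, adjusted p = 0.0184), and Heyl, a Notch target, had a log2 fold change of -0.56.

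**Figure D4:**
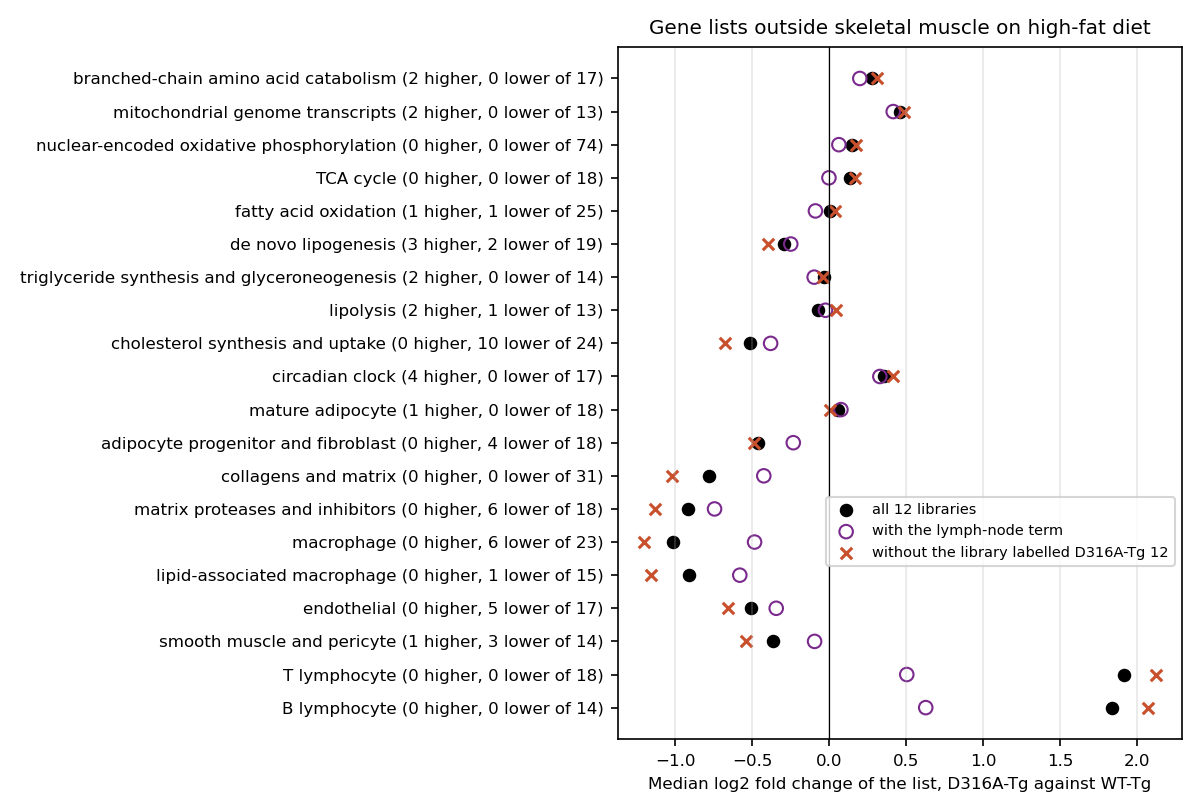
Each row is 1 gene list, with the median log2 fold change of its tested genes (D316A-Tg against WT-Tg) from all 12 libraries (black), with the lymph-node term (open circle) and without the library labelled D316A-Tg 12 (cross). In brackets stand the genes called higher and lower with all 12 libraries; the T and B lymphocyte medians move from 1.92 and 1.84 to 0.50 and 0.63 with the term, and the cholesterol, matrix, macrophage and endothelial medians are below 0 in all 3 fits.

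With the muscle score as a covariate the medians of several lists moved towards 0: cholesterol synthesis had -0.19, collagens and matrix -0.40, progenitors -0.29, endothelial genes -0.31 and clock genes 0.05. Those of matrix proteases and macrophages were -0.92 and -0.84, and that of nuclear-encoded oxidative phosphorylation turned from 0.15 to -0.21. The median of the mitochondrial genome transcripts went from 0.46 to -0.03. That of brown and beige adipocyte genes turned from 0.72 to -0.68, and that of glucose uptake and glycolysis from 0.02 to -0.45. In that fit edgeR called no gene in any list or outside them, while 922 of the 14649 genes had an unadjusted p below 0.05 and DESeq2 called 27.

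The effect of D316A-Tg was set against that in the chow libraries of the series (6 WT-Tg and 6 D316A-Tg, 16 weeks old), where 1303 of 15249 genes passed the test (8.54%), 808 in the higher direction (5.3%) and 495 in the lower (3.25%). The difference of the effect between the diets was tested over 16072 genes and called for 2080 (12.9%), 977 with a higher effect on HFD (6.08%) and 1103 with a lower one (6.86%). Of the 1241 genes called on HFD, 124 were also called on chow and 84 of these had the same direction. Age, count table and base-calling version differ with the diet and cannot be told apart from it. On chow, 4 of 6 WT-Tg and 2 of 6 D316A-Tg libraries had Glycam1 above 1 CPM, and the median of the fast fibre genes was -3.97 on the log2 scale, none of them called.

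Several lists of fat metabolism differed between the diets. For oxidative phosphorylation 57 of 74 genes rose on chow (median 0.89) against none on HFD (0.15), and the effect was lower on HFD for 25 of 74. It was lower on HFD for 7 of 18 genes of the citric acid cycle, 8 of 25 of fatty acid oxidation and 9 of 19 of de novo lipogenesis, with none higher in these 3 lists, and the lipogenesis median was 1.03 on chow and -0.30 on HFD. For cholesterol synthesis the effect was lower on HFD for 14 of 24 genes and higher for 1. Fdps had a log2 fold change of 0.81 ± 0.25 SE on chow and -0.97 on HFD (difference -1.77, adjusted p = 0.00335), and Slc25a1 1.41 and -0.99 (difference -2.4, adjusted p = 0.00357). Ncan had 0.72 on chow and -2.74 on HFD (difference -3.47, adjusted p = 0.00335). Celsr2 and Fgf11 had effects that were higher on HFD by 1.53 and 1.18 (adjusted p = 0.0204 and 0.0265). Ncan, Celsr2 and Fgf11 were named for their fold changes on HFD, and that choice favours a larger effect there. For Cyp2e1, which rose on both diets (1.58 on chow), and for Esr1 (1.04 on chow) and Id3 (-0.82 on chow) the difference was 0.91 ± 0.54, 0.05 ± 0.32 and -0.29 ± 0.17 (SE) and was not called. Muscle genes were higher on HFD for 10 of 11 fast fibre and 18 of 21 sarcomere members. With a lymph-node term for each diet 1879 genes were called, 1023 higher and 856 lower on HFD.

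**Figure D5:**
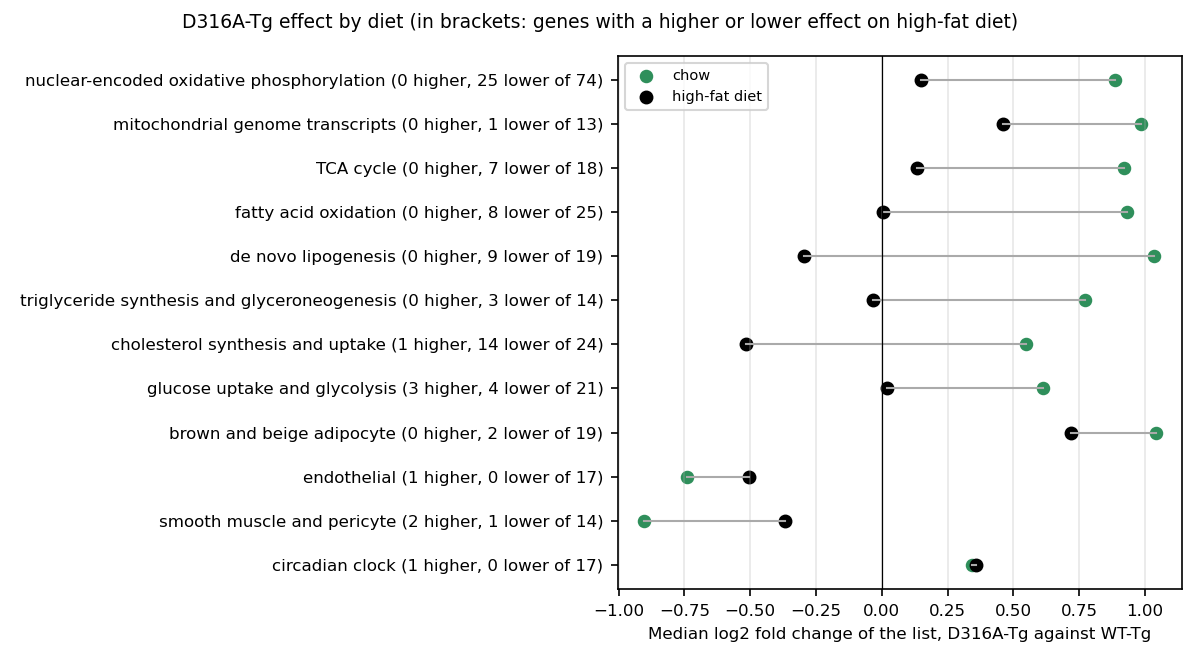
Each row is 1 gene list, with the median log2 fold change of D316A-Tg against WT-Tg on chow (green) and on HFD (black), joined by a line. In brackets stand the genes whose effect was called higher or lower on HFD; oxidative phosphorylation goes from 0.89 to 0.15, de novo lipogenesis from 1.03 to -0.30 and cholesterol synthesis from 0.55 to -0.51.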

How the data were processed

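Each library was an RNA-seq library of inguinal fat made with a stranded mRNA kit, per the labels' protocols, from RNA whose integrity number was 7 or more. The deposited values used were raw read counts per gene; STAR 2.4.1, FastQC, DESeq2, the mm10 genome and bclfastq 2.16.0.10 (HFD) or 2.20.0.422 (chow) are named in the submitters' processing notes. The sources used here do not give the counter or the annotation. Of the gene identifiers 95.4% were in GENCODE M21 (GRCm38), which gave the positions.

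Genes passing filterByExpr were fitted with edgeR 4.0.16 (R 4.3.3; TMM scaling, robust quasi-likelihood test), adjusted over all tested genes by Benjamini-Hochberg at 0.05; log2 CPM values used a prior count of 2. Groups and comparisons followed the labels. The lymph-node term is 1 for libraries with Glycam1 above 1 CPM. Alternatives included DESeq2 1.42.0 and limma 3.58.1 (voom with quality weights). The difference between diets was fitted on the genes shared by both tables. The fit held terms for genotype, for diet and for their interaction, and the interaction was tested. No pair of libraries of a group agreed within sampling noise (lowest chi-square per degree of freedom 19.9). On simulated 6 against 6 data of 14542 genes the test recovered 70% of 100 genes changed 2-fold and 92% of 100 changed 4-fold. It made 10 false calls there. The simulated spread was estimated with the lymph-node term, and no lymph node difference was simulated. It leaves out spread that the fit without the term meets, so the recovery can be too high. Whether these values hold for the HFD libraries, which differ in muscle and lymph node transcripts, was not tested.

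The 47 gene lists (841 genes), the members and the rule for named genes were chosen with earlier results of these data known. Named were the AMPK subunits, Ucp1, Cfd and Pck1. Of genes at 5 CPM or more in the higher group, the 10 highest and 10 lowest called with and without the lymph-node term outside the muscle genes were added. The 6 muscle genes with the lowest adjusted p and up to 4 called members of each described list (the 2 lowest by adjusted p where none was called) completed them. Some genes that the rule names are not reported here. Other genes named were chosen after their values were seen.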

Additional observations from a re-analysis of the deposited data

Results flagged for a closer look

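Among 104 named genes, 1 library stood far from the other 5 of its group in 12 of 208 groups of 6. The measure was the gap to its nearest neighbour over the group's range (Dixon's 95% value). Chance gives such a mark in about 1 in 20 groups. The marks do not follow from the untransformed CPM values given here. Mybpc2 and Ucp1 stood far above their group in D316A-Tg 7 in CPM and carry no mark. The library labelled D316A-Tg 12 was above its group for Slc25a1 (685 CPM, next 356), Id3 (60.8 CPM, next 44.3), Kcnc2 (14.1 CPM, next 5.03) and Fdps (63.6 CPM, next 33.6). The library labelled D316A-Tg 12 was below its group for Cfd (1283 CPM, next 4403). Ndufa6 was high in D316A-Tg 7 at 126 CPM, with the nearest other at 80.4. Tnfrsf12a was high in WT-Tg 4 at 88.7 CPM, with the nearest other at 55.7. Cyp2e1 was low in WT-Tg 5 at 29.5 CPM, with the nearest other at 104. Cyp2e1 was low in D316A-Tg 10 at 263 CPM, with the nearest other at 599. Gpd2 was high in D316A-Tg 7 at 249 CPM, with the nearest other at 79.6. Sypl2 was high in WT-Tg 5 at 0.97 CPM, with the nearest other at 0.376. N4bp2l1 was high in WT-Tg 3 at 19.2 CPM, with the nearest other at 17. 

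The effect of D316A-Tg differed between HFD and chow for 41 of the 104 named genes. The difference itself was tested (edgeR, adjusted p below 0.05). Over all tested genes it was called for 2080 of 16072 (12.9%). Most named genes were chosen by their calls or fold changes in the same HFD libraries. A difference towards the HFD direction therefore follows in part from that choice. Each value is the log2 effect on HFD minus that on chow. Among the skeletal muscle genes the difference was 11.85 for Actn3, 11.5 for Atp2a1, 11.3 for Mybpc2, 10.81 for Pgam2, 10.77 for Mylk4, 10.21 for Ampd1, 9.86 for Myom2, 9.72 for Tnni2, 9.23 for Mylpf, 9.16 for Cacna1s, 9.15 for Tcap, 9.15 for Nrap, 8.22 for Trdn, 8.13 for Ckmt2, 7.88 for Sypl2, 7.03 for Eno3 and 4.39 for Des. Outside them it was above 0 for Slc16a3 (5.93), Prkag3 (3.31), Celsr2 (1.53), Fgf11 (1.18) and Foxo1 (0.86). Of these, Slc16a3 and Prkag3 are known from skeletal muscle too. It was below 0 for Lcn2 (-4.07), Gipc2 (-3.93), Ncan (-3.47), Fbln7 (-2.45), Slc25a1 (-2.4), Cxadr (-2.33), Lctl (-2.11), Lum (-1.95), Plin2 (-1.88), Il20rb (-1.84), Fdps (-1.77), Cd14 (-1.75), Kcnk3 (-1.57), Abhd5 (-1.49), Cspg4 (-1.29), Tnfrsf12a (-1.22), Ndufb3 (-1.09), Hmgcs1 (-1.01) and Dhcr7 (-0.9). Age, count table and base-calling version differ with the diet and cannot be told apart from it.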

How the results depend on the processing

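No paired analysis was possible because the WT-Tg libraries are numbered 1 to 6 and the D316A-Tg libraries 7 to 12, with no shared number. The counts of called genes are given in the order all genes, genes with the lymph-node term, genes outside the muscle genes and genes whose effect differed between diets, which were 1241, 79, 1176 and 2080. They stayed within 1.5 times of these under RLE or upper-quartile scaling, TMM without the muscle genes, a mean count of at least 50 and no robust step. They were 2794, 865, 2722 and 3001 with DESeq2 and 4354, 481, 4289 and 10325 with voom, and without a filter 795, 77, 736 and 1406. Of the genes with the term 34.2% were higher, against 53.8% with DESeq2 and 49.9% with voom. With the lymph node list score in place of the term the share was 52.6% (57 genes). For the diets 47.0% were higher, against 54.4% with a lymph-node term for each diet (1879 genes, 1362 of them shared). The cause was not tested.

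Leaving out 1 library gave 326 to 3919, 0 to 687, 303 to 3844 and 1368 to 2930 genes. The highest of each was without the library labelled D316A-Tg 12. All-gene counts were 458, 607, 1784, 337, 384 and 326 without WT-Tg 1 to 6 in order and 639, 496, 393, 1123 and 535 without D316A-Tg 7 to 11, and with the term 218 genes were called without D316A-Tg 7. With the muscle score as a covariate edgeR called 0 genes (0 outside the muscle genes; 914 at an unadjusted p below 0.05) and DESeq2 27, and without the library labelled 12 edgeR called 10. The 7 libraries with Glycam1 at or below 1 CPM (5 against 2) gave 0 genes (1840 unadjusted; 0 and 1767 outside the muscle genes), and 365 with DESeq2. The lymph-node term and muscle score together gave 0 (1022 unadjusted), and 44 with DESeq2; outside the muscle genes the term left 79. Without WT-Tg 3 and the library labelled D316A-Tg 12 there were 4508.

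These log2 fold changes turned sign. Prkab1 was 0.012 with upper-quartile scaling, 0.021 with voom, -0.046 to 0.026 when 1 library was left out and 0.043 without WT-Tg 3 and D316A-Tg 12. Prkag2 was -0.0023 without a filter, -0.047 to 0.084 when 1 library was left out, -0.025 with low Glycam1 only and -0.088 with the term. Prkag3 was -0.29 with voom and -0.017 to 0.55 when 1 library was left out, and Prkag1 -0.026 to 0.36. Ucp1 was -1.77 with voom, -2.88 to 1.24 when 1 library was left out, -5.21 with low Glycam1 only and -3.70 with the term. With the muscle score Ucp1 was -6.36, Slc16a3 -1.31, Prkab2 -0.68, Prkag1 -0.65, Prkaa2 -0.52, Eno3 -0.23, Des -0.16, Gpd2 -0.13, mt-Nd3 -0.13, Flcn -0.055, Fnip1 -0.048, Sypl2 -0.041 and Ndufa6 -0.035. Of the 93 named genes that were called, 46 kept the call in all 12 fits that left out 1 library and all 93 did without the library labelled D316A-Tg 12. The last count is no support for the calls, because leaving out the D316A-Tg library nearest the WT-Tg mean tends to widen the group difference.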

Other observations

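Several genes outside the lists changed, and were picked after their values were seen. Ripk4, a kinase of epithelial differentiation, measured 1.89 to 6.25 CPM (median 3.57) in WT-Tg and 8.52 to 90.1 CPM (median 41.5) in D316A-Tg, with no overlap of the groups (log2 fold change 3.59 ± 0.53 SE, adjusted p = 0.00981). Irf4, a transcription factor of adipocytes and lymphocytes, measured 2.396 to 10.4 CPM (median 5.102) in WT-Tg and 6.14 to 35.3 CPM (median 27.6) in D316A-Tg (log2 fold change 2.19 ± 0.41 SE, adjusted p = 0.0194). Orm3, an acute-phase glycoprotein gene, and Acsm3, a medium-chain acyl-CoA synthetase gene, rose as well, with log2 fold changes of 3.37 and 2.93, and so did Fam13a (1.88), a gene known from genetic studies of fat distribution. Rasd1, a glucocorticoid-induced small GTPase gene, fell (80.1 to 295 CPM (median 189) in WT-Tg and 26.8 to 98.3 CPM (median 35.8) in D316A-Tg; log2 fold change -1.96 ± 0.40 SE, adjusted p = 0.0222). None of these 6 was called with the lymph-node term (adjusted p = 0.0505 for Irf4 to 0.136 for Acsm3).

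Further myeloid genes fell: Folr2, a folate receptor of resident macrophages (-1.71), and Clec12a, an inhibitory lectin (-1.63). With the lymph-node term neither was called (adjusted p = 0.0985 and 0.110). Of 20 genes of heat shock and the unfolded protein response 2 fell, the chaperone Hspa5 (-0.38) and the stress factor Ddit3 (-0.44). Of 8 blood cell genes Pf4, a platelet chemokine that macrophages also make, fell (23.1 to 59.1 CPM (median 32.04) in WT-Tg and 8.03 to 21.5 CPM (median 12.2) in D316A-Tg; log2 fold change -1.40 ± 0.29 SE, adjusted p = 0.0222). Of 20 immediate early genes Zfp36 rose (0.56). These 3 lists had 4 lower, 3 lower, and 3 higher and 3 lower genes without the library labelled D316A-Tg 12, where 12.2% of all genes were higher and 14.1% lower. Ddit3 was the only member of them called with the lymph-node term.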
